A study of Mus musculus with 9 samples.

Results

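The secreted factors and growth factors with which the bone marrow (BM) niche acts on hematopoietic cells were compared between Sca-1+ and Sca-1- BM endothelial cells (ECs). The 10 genes were Kitl, Cxcl12, Tgfb1, Il7, Csf1, Il6, Fgf1, Ptn, Pdgfa and Pdgfb, taken by gene name from a table of 46078 genes, and all 10 of them were among the 15937 genes that passed the filter on low counts. Hematopoietic stem cells lie close to blood vessels and perivascular stroma, where stem cell factor (Kitl) and CXCL12 retain and maintain them, interleukins and colony-stimulating factors drive single lineages, and TGF-β holds stem cells in quiescence. The PDGF, FGF and pleiotrophin ligands are better known for acting on vessel walls, stroma and stem cell expansion, and megakaryocytes are a further known source of TGF-β and PDGF in the marrow.

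Libraries were made by RNA-seq of CD45-Ter119-CD31+ ECs from the BM of normal wild type (wt) mice of the B6 strain, with no treatment named in the labels (the titles of libraries 10, 13, 14 and 22 also carry the tag CD452, in 1 of them without its letters, and library 13 was the only Sca-1+ one with it), and with CD31 and Sca-1 as the only positive markers of the gates. There were 4 libraries of Sca-1+ ECs, here named by the end numbers of their labels (7, 13, 15 and 19), and 5 of Sca-1- ECs (8, 10, 14, 16 and 22). The study takes high Sca-1 as the mark of arteriolar ECs and low Sca-1 as that of sinusoidal ECs, and the labels give no ages. Libraries 15 and 16 carry the same mouse number, and the labels do not say for all the others which mouse they came from, so the p-values measure only the spread between these libraries. Running numbers at the start of the labels form separate ranges in the fractions, so that any batch tied to them cannot be told apart from Sca-1 status.

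The sorted fractions were first checked against defining markers. Total counts were 23058385 to 24657204 per Sca-1+ library and 21581653 to 25959818 per Sca-1- library, and the level worth 3 counts was 0.0996 to 0.209 CPM (counts scaled by library size and by edgeR's TMM factor, the level used throughout). Ly6a, which encodes Sca-1, was at 874 to 1306 CPM in Sca-1+ libraries and 0.240 to 1.49 CPM in Sca-1- libraries, while the ranges of Pecam1 (CD31) overlapped, at 1137 to 1760.5 CPM and 334 to 1702 CPM. Beside the marker lists here and below, 23.3% of all genes tested were called higher and 21.4% lower in Sca-1+ libraries. General endothelial genes did not mark both fractions alike, since 22 of 25 were higher in Sca-1+ libraries and 2 were lower. Their share of the counts was 1.28% to 1.66% in Sca-1+ and 0.133% to 0.212% in Sca-1- libraries. All 16 megakaryocyte markers were higher in the Sca-1- libraries, which gave them 3.20% to 6.95% of their counts against 0.00448% to 0.0117%, and none was at 0 in a whole fraction. The osteoblast list, with 5 of 10 genes lower in Sca-1+ libraries and 5 not called, summed to 226 to 1108 CPM in Sca-1+ and 2649.96 to 32696 CPM in Sca-1- libraries, and 10 of 12 leukocyte genes were also lower in Sca-1+ libraries. The label of the Sca-1- cells as ECs therefore went against the levels of these markers, and "Sca-1-" below means the sorted fraction. In Sca-1+ libraries 11 of 12 arterial and also 8 of 9 sinusoidal endothelial genes were higher (1 sinusoidal gene lower). The sinusoidal list summed to 513 to 1092 CPM in Sca-1+ and 59.2 to 225 CPM in Sca-1- libraries. The mural list, 9 of 12 higher, summed to 690.2 to 1701 and 20.3 to 98.1 CPM, so "Sca-1+ ECs" below is the name of a sorted fraction too. In bulk RNA, fewer cells of a type and less RNA per cell cannot be told apart.

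Of the 10 niche factors, 4 were higher in Sca-1+ ECs (Kitl, Cxcl12, Il6 and Pdgfb), 3 were lower (Tgfb1, Il7 and Pdgfa) and 3 passed no threshold (Fgf1, Csf1 and Ptn). The test was edgeR's quasi-likelihood test with an adjusted p under 0.05 over all 15937 genes tested, which called 23.3% of all genes higher and 21.4% lower in Sca-1+ libraries. The fractions did not overlap in 3 factors on the higher side (Kitl, Cxcl12 and Pdgfb) and in 3 on the lower side (Tgfb1, Il7 and Pdgfa), beside 24.8% and 18.8% of all genes tested. The median log2 fold change was 1.72 over the 10 factors and 0.07 over all genes tested. With shares as high as these in the whole table, a share of a list of this size is a description only.

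**Figure D1:**
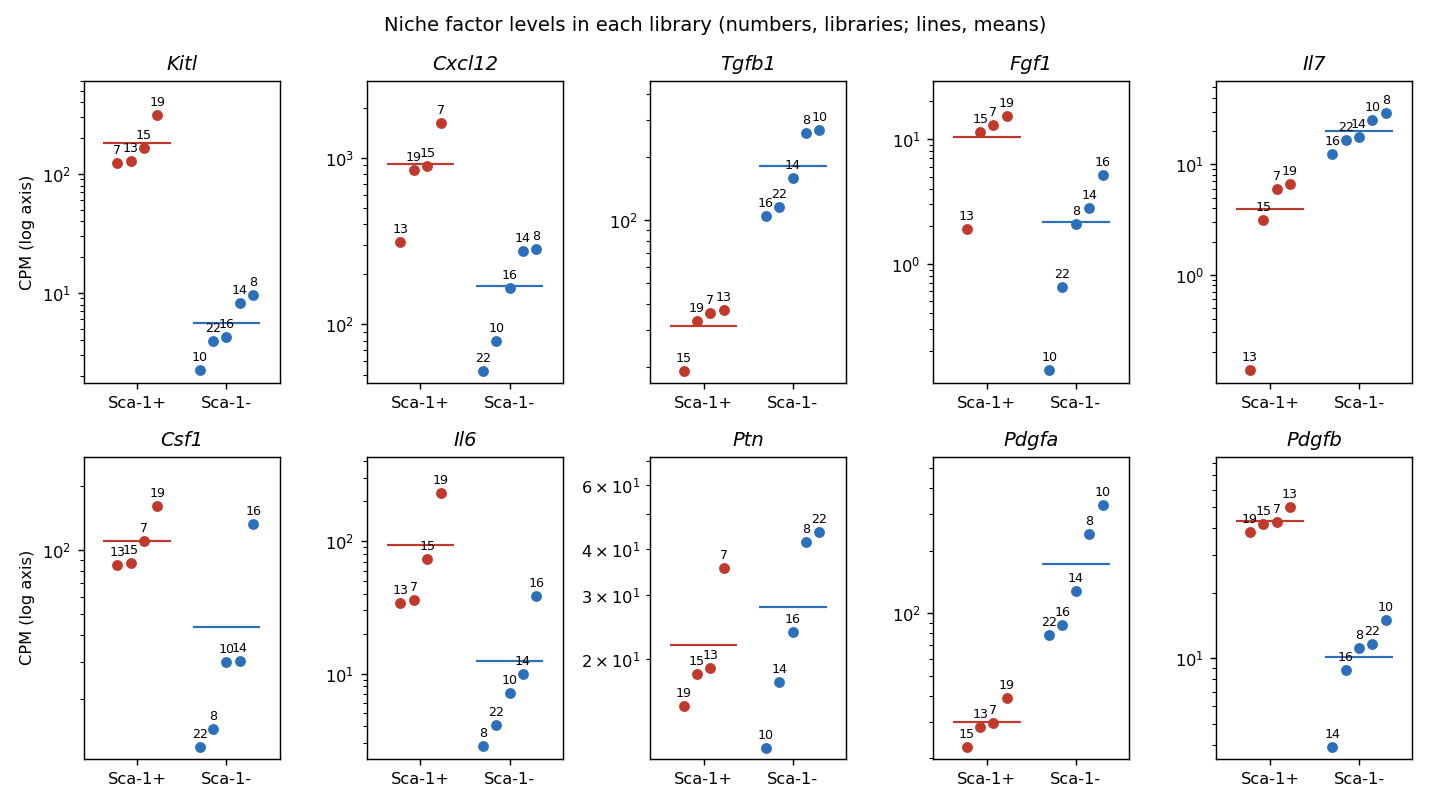
CPM of each niche factor on log axes, 1 panel a gene, with 1 point for each Sca-1+ (red, n = 4) and Sca-1- (blue, n = 5) library, its library number above it and the mean of the fraction as a line. Kitl, Cxcl12 and Pdgfb separate upwards in Sca-1+ libraries and Tgfb1, Il7 and Pdgfa downwards, while Sca-1- library 16 reaches the Sca-1+ range in Csf1 and Il6.

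Promoters are shown for factors of both directions. RefSeq windows from 250 bases before to 50 bases after a start site (assembly GRCm38.p6) were matched for 7 of the 10 factors, with 2 windows for Pdgfa. Kitl and Cxcl12 are shown as the best-known ligands of the niche, Csf1 and Il6 because they shared their highest library in both fractions (as did Fgf1), and Tgfb1 as a factor on the other side. Each sequence runs 5′ to 3′ along the gene, and capitals mark a match on either strand to the ETS letters AGGAAG, the SOX letters AACAAT or the kappa-B consensus.
Kitl promoter window, chr10:100015571-100015870, + strand: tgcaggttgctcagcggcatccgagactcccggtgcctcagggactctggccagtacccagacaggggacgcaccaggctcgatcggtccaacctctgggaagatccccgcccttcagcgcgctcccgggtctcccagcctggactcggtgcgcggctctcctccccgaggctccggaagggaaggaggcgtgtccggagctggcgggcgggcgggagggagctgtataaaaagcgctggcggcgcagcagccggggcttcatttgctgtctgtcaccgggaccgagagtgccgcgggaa
Cxcl12 promoter window, chr6:117168285-117168584, + strand: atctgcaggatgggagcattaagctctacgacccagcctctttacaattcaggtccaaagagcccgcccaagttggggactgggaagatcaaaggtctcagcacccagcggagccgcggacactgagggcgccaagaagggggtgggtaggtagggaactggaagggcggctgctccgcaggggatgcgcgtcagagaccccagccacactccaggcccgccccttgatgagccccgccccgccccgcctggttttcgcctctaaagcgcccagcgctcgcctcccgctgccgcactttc
Csf1 promoter window, chr3:107760420-107760719, - strand: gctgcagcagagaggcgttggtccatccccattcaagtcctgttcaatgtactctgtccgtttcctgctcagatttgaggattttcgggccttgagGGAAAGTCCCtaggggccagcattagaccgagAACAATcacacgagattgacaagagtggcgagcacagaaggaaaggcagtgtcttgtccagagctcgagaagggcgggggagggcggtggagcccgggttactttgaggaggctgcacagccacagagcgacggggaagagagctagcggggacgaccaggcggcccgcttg
Il6 promoter window, chr5:30012864-30013163, + strand: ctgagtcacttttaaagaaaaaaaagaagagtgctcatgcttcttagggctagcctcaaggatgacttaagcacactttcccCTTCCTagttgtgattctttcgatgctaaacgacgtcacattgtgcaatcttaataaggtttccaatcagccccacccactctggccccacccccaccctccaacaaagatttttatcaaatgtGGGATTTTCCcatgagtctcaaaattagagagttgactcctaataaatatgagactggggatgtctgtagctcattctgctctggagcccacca
Tgfb1 promoter window, chr7:25686752-25687051, + strand: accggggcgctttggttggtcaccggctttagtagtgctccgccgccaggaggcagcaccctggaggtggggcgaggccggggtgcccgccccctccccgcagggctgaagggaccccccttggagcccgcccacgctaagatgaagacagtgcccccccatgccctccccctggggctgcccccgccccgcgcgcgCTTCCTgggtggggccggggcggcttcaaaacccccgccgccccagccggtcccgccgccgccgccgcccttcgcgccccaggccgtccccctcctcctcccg
The kappa-B consensus, the binding motif of NF-κB, was matched in the windows of Csf1 (first base at -154 from the start site) and Il6 (first base at -44) and in none of the other 6 windows, beside 4.51% of all 32851 RefSeq windows of this length. The ETS letters AGGAAG stood in 3 of the 8 windows (Il6, Tgfb1 and the second Pdgfa window) against 35.4% of all windows, and the SOX letters in the Csf1 window only, against 10.7%. Other forms of the ETS motif, such as the shorter core GGAA, were not searched for, and GGAA is also present in the Kitl, Cxcl12 and Csf1 windows. Neither the GATA letters AGATAA (11.2% of all windows) nor the hypoxia response core ACGTG (19.6%) was found in any of the 8. The capitals do not overlap each other. GC content was 77% in the Tgfb1, 68.7% in the Kitl, 64.7% in the Cxcl12, 58.7% in the Csf1 and 44% in the Il6 window, with a median of 52.7% over all windows. A match is a description of the letters and no binding was measured.

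Kitl, which encodes the ligand of the receptor KIT, was the factor with the largest difference (ENSMUSG00000019966, GRCm38 chromosome 10 from 100015630 to 100100416). Its levels were 124, 128, 164 and 315 CPM in Sca-1+ libraries 7, 13, 15 and 19, and 9.61, 2.23, 8.19, 4.25 and 3.95 CPM in Sca-1- libraries 8, 10, 14, 16 and 22. Every Sca-1+ library thus lay far above every Sca-1- library, with means of 183 ± 89.9 and 5.65 ± 3.11 CPM (SD, n = 4 and 5). The log2 fold change was 5.01 ± 0.50 (SE, adjusted p = 5.3e-05 by edgeR), a 32.3-fold difference. Between the fractions Kitl differed in the same direction as the endothelial gene Cdh5 (VE-cadherin), which was at 235 to 297 CPM in Sca-1+ and 2.44 to 13.1 CPM in Sca-1- libraries, though the order of libraries within each fraction was not that of Kitl. Per Cdh5 count there were 0.495 to 1.14 Kitl counts in Sca-1+ libraries and 0.323 to 1.52 in Sca-1- libraries, so the ratio overlapped between the fractions. The genes whose pattern over the 9 libraries was nearest to that of Kitl were Hspb1, Rasd1 and Il13ra1, with a mean absolute difference in centred log2 CPM of 0.34, 0.35 and 0.40 among 9866 genes compared.

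Cxcl12, the chemokine that keeps CXCR4-bearing cells in the marrow, was also higher in Sca-1+ ECs (ENSMUSG00000061353, chromosome 6 from 117168535 to 117181367). Sca-1+ libraries 7, 13, 15 and 19 held 1623, 311, 891 and 842 CPM, and Sca-1- libraries 8, 10, 14, 16 and 22 held 282, 79.5, 275, 165 and 52.7 CPM. The fractions did not overlap, but Sca-1+ library 13 came within a small margin of the highest Sca-1- libraries. The highest library was 5.22 times the lowest in the Sca-1+ and 5.35 times in the Sca-1- fraction. The means were 917 ± 539 and 171 ± 107 CPM (SD, n = 4 and 5), with a log2 fold change of 2.42 ± 0.59 (SE, adjusted p = 0.0071 by edgeR), or 5.36-fold.

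Markers of CXCL12-abundant reticular stroma varied beside Cxcl12. Adipoq (adiponectin), a defining gene of that stroma, was at 156, 9.47, 84.8 and 53.7 CPM in Sca-1+ libraries 7, 13, 15 and 19, the same order of libraries as for Cxcl12, and at 5.50 to 38.9 CPM in Sca-1- libraries. Cxcl12 counts were 10.4 to 32.9 times the Adipoq counts in Sca-1+ libraries and 7.08 to 14.4 times in Sca-1- libraries, ranges that overlapped. Lepr, the leptin receptor of the same stroma, was at 38.2 CPM in library 13 and 80.9 to 151 CPM in the other Sca-1+ libraries. Of the whole reticular list of 15 genes, 6 were higher in Sca-1+ ECs, 2 lower and 7 not called, with a median log2 fold change of 0.92. Its summed level was 539.6 to 1591 CPM in Sca-1+ and 3123 to 41913 CPM in Sca-1- libraries. Its mean log2 CPM, in which abundant genes weigh less, overlapped, at 3.63 to 5.77 in Sca-1+ and 3.08 to 5.53 in Sca-1- libraries. No gene of the list was at 0 in a whole fraction. The part of these cells in the Cxcl12 difference was not tested. Nearest to Cxcl12 in pattern were Serping1, Igf1 and Esm1, with mean absolute differences of 0.34, 0.38 and 0.42 in centred log2 CPM over the 9 libraries.

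**Figure D2:**
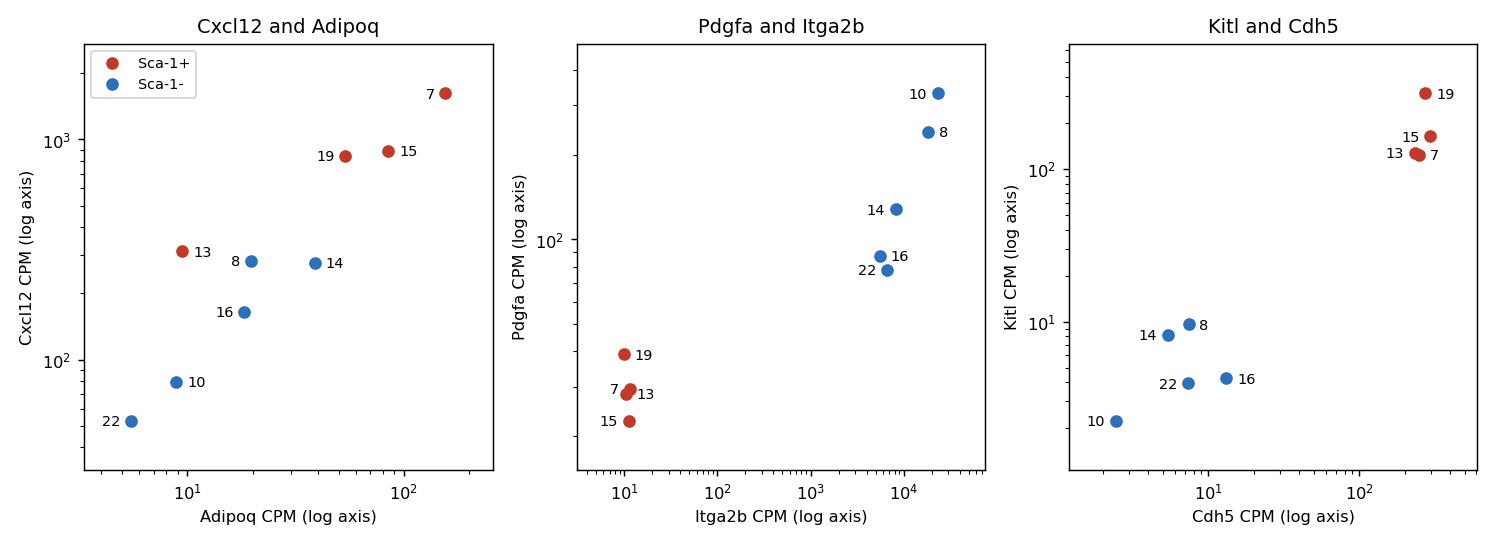
Level of a niche factor (y axis, CPM, log) against that of a marker gene (x axis, CPM, log) in each library, with red points for Sca-1+, blue for Sca-1- and library numbers beside them. Cxcl12 is plotted against the stromal gene Adipoq, Pdgfa against the megakaryocyte gene Itga2b and Kitl against the endothelial gene Cdh5, and Sca-1+ library 13 lies lowest of its fraction in the first panel, at 311 CPM of Cxcl12 and 9.47 CPM of Adipoq.

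Tgfb1, which encodes the TGF-β form best known for stem cell quiescence, was lower in Sca-1+ ECs (ENSMUSG00000002603, chromosome 7 from 25687002 to 25705077). It was at 36.2, 37.2, 19.1 and 32.9 CPM in Sca-1+ libraries 7, 13, 15 and 19 and at 262, 269, 158, 105 and 116 CPM in Sca-1- libraries 8, 10, 14, 16 and 22. The fractions were well apart, at 31.4 ± 8.38 and 182 ± 78.8 CPM (SD, n = 4 and 5). The log2 fold change was -2.54 ± 0.37 (SE, adjusted p = 4.3e-04 by edgeR), a 5.80-fold higher level in the Sca-1- fraction. The other ligands of the family did not follow, since Tgfb2 was higher in Sca-1+ ECs (22.1 ± 5.47 against 2.70 ± 1.43 CPM, log2 fold change 3.02 ± 0.47 SE, adjusted p = 5.8e-04 by edgeR) and Tgfb3 overlapped (4.46 to 28.9 against 7.12 to 32.7 CPM, adjusted p = 0.63 by edgeR).

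The balance of these ligands can be read inside each library, where scaling plays no part. The log2 ratio of Tgfb1 counts to the sum of Tgfb2 and Tgfb3 counts was 0.20, 0.62, -0.49 and -0.83 in Sca-1+ libraries 7, 13, 15 and 19 and 2.85, 5.10, 3.26, 2.70 and 2.39 in Sca-1- libraries 8, 10, 14, 16 and 22. Tgfb1 was therefore near parity with its relatives in Sca-1+ ECs and the dominant transcript in the Sca-1- fraction. The difference was -3.39 (exact permutation test over the libraries, two-sided, p = 0.0079, the smallest it allows, adjusted p = 0.020 over 5 ratios).

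Tgfb1 levels ran beside the megakaryocyte markers within the Sca-1- fraction. In CPM, both Tgfb1 and the summed level of the 16 markers fell in the order of libraries 10, 8, 14, 22 and 16, and the sum went from 119741 down to 27599.8 CPM. The TMM factors, by which both are divided, rose in that order from 0.581 to 1.16, so the shared order is not independent of the scaling. As shares of all counts the markers kept it (6.95% to 3.20%), but Tgfb1 counts were higher in library 8 (4359) than in library 10 (3857). Per count of Itga2b (CD41), a defining megakaryocyte gene at 5539 to 23281 CPM in Sca-1- libraries, there were 0.0116 to 0.0193 Tgfb1 counts. In Sca-1+ libraries, where Itga2b was at 9.87 to 11.7 CPM, there were 1.71 to 3.55. The part of megakaryocyte RNA in the Tgfb1 difference was not tested.

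Il7, the growth factor of early lymphoid cells, was likewise lower in Sca-1+ ECs (ENSMUSG00000040329, chromosome 3 from 7569994 to 7613760). Its levels were 6.0, 0.136, 3.11 and 6.66 CPM in Sca-1+ libraries 7, 13, 15 and 19, and 29.0, 25.3, 17.7, 12.5 and 16.5 CPM in Sca-1- libraries 8, 10, 14, 16 and 22. Library 13, with 4 counts, was close to the level worth 3 counts, and the other Sca-1+ libraries were still below every Sca-1- library. The means were 3.98 ± 2.99 and 20.2 ± 6.76 CPM (SD, n = 4 and 5), and the log2 fold change was -2.34 ± 0.78 (SE, adjusted p = 0.031 by edgeR). Leaving out library 13 gave -1.93 (adjusted p = 0.0059), but the call was lost without Sca-1+ library 15 (adjusted p = 0.084), Sca-1- library 8 (0.052) or Sca-1- library 10 (0.051), and with scaling by library size alone (0.066). Within the Sca-1- fraction Il7 was highest by CPM in libraries 8 and 10, as were the megakaryocyte markers. Before scaling, library 10 held the fewest Il7 counts of that fraction, 362 against 375 to 482, and it had the lowest TMM factor (0.581). Among Sca-1+ libraries Il7 was lowest in library 13, which also had the least Adipoq, Lepr and Cxcl12. Il7 counts per Adipoq count did not overlap between the fractions, at 0.0144 to 0.124 in Sca-1+ and 0.455 to 2.99 in Sca-1- libraries. The part of either cell type in the Il7 difference was not tested. A non-coding gene on the opposite strand, Gm16685, overlaps 1.85% of the Il7 exon bases.

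Csf1, the growth factor of monocytes and macrophages, did not pass the threshold (ENSMUSG00000014599, chromosome 3 from 107741048 to 107760469). It was at 110.3, 84.8, 87.1 and 160.3 CPM in Sca-1+ libraries 7, 13, 15 and 19 and at 14.5, 30.0, 30.3, 132 and 12.0 CPM in Sca-1- libraries 8, 10, 14, 16 and 22. In 4 of the 5 Sca-1- libraries it was below every Sca-1+ library, and Sca-1- library 16 alone lay inside the Sca-1+ range. The log2 fold change was 1.33 ± 0.65 (SE, adjusted p = 0.12 by edgeR). Without Sca-1- library 16 it was 2.34 ± 0.38 (SE, adjusted p = 9.5e-04 by edgeR), and leaving out any other single library brought no call.

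Il6, an inflammatory cytokine that also acts on early progenitors, was higher in Sca-1+ ECs (ENSMUSG00000025746, chromosome 5 from 30013114 to 30019981). Sca-1+ libraries 7, 13, 15 and 19 were at 35.9, 34.1, 73.4 and 232 CPM, and Sca-1- libraries 8, 10, 14, 16 and 22 at 2.82, 7.12, 9.84, 38.6 and 4.11 CPM. The extremes were the same libraries as in Csf1, Sca-1+ library 19 and Sca-1- library 16, and the latter lay above Sca-1+ libraries 7 and 13. Means of 93.9 ± 94.0 and 12.5 ± 14.8 CPM (SD, n = 4 and 5) had SDs as large as themselves, and the log2 fold change was 2.90 ± 0.85 (SE, adjusted p = 0.019 by edgeR), or 7.48-fold. Without Sca-1+ library 19 the call was lost (1.93, adjusted p = 0.077), without Sca-1- library 16 it grew to 3.96 (adjusted p = 0.0019), and without both it was 3.0 (adjusted p = 0.0022, an alternative chosen after seeing the data).

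Markers of other cells were measured in the same libraries. In Sca-1- library 16 the mean log2 CPM over the 12 leukocyte genes was 7.95 against 6.14 to 6.89 in the other Sca-1- libraries, and that over the 12 mural genes was 1.86 against -1.18 to 1.2, although by summed CPM library 8 (4389) exceeded library 16 (4089) in the leukocyte list. That list summed to 2173 to 4389 CPM in Sca-1- and 250.5 to 406 CPM in Sca-1+ libraries, the mural list (9 of 12 higher in Sca-1+ ECs) to 20.3 to 98.1 and 690.2 to 1701 CPM, and neither had a gene at 0 in a whole fraction. Sca-1+ library 19 held 777 CPM of the 8 neutrophil genes against 8.25 to 56.9 CPM in the other Sca-1+ libraries, and 46.4 CPM of the B and plasma cell genes against 1.45 to 1.84 CPM. Its mean log2 CPM over the leukocyte genes was 3.20 against 0.24 to 1.23, although its summed leukocyte level was the lowest of its fraction. Sinusoidal endothelial genes had a mean of 4.13 in Sca-1- library 16 against 1.70 to 2.99, although by summed CPM library 22 (225) exceeded library 16 (221). The part of these cells in the Csf1 and Il6 levels was not tested.

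Among the growth factors, Fgf1 (acidic fibroblast growth factor, ENSMUSG00000036585) was at low levels and did not pass the threshold. It was at 12.9, 1.91, 11.4 and 15.4 CPM in Sca-1+ libraries 7, 13, 15 and 19 and at 2.10, 0.140, 2.80, 5.15 and 0.652 CPM in Sca-1- libraries 8, 10, 14, 16 and 22. Library 10 held 2 counts, below the level of 3. Only Sca-1+ library 13 reached into the Sca-1- range, and the log2 fold change of 2.25 (SE 0.85) had an adjusted p of 0.054 by edgeR. Without library 13 it was 2.60 (adjusted p = 0.033) and without Sca-1- library 16 it was 2.85 (adjusted p = 0.025). The log2 ratio of Fgf1 to Fgf2 counts overlapped between the fractions, with -1.82 to 1.48 in Sca-1+ and -4.15 to 0.86 in Sca-1- libraries (difference 2.05, exact permutation p = 0.16, adjusted p = 0.26 over 5 ratios).

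Ptn, which encodes pleiotrophin, a heparin-binding factor that expands stem cells, was not called (ENSMUSG00000029838, chromosome 6 from 36714929 to 36810220). Its levels were 35.4, 18.8, 18.2 and 14.8 CPM in Sca-1+ libraries 7, 13, 15 and 19 and 41.8, 11.4, 17.3, 23.7 and 44.8 CPM in Sca-1- libraries 8, 10, 14, 16 and 22. The Sca-1+ range lay inside the Sca-1- range, and the log2 fold change was -0.35 ± 0.43 (SE, adjusted p = 0.54 by edgeR). Its relative Mdk (midkine) was at 1.16 to 22.3 and 3.22 to 9.63 CPM, and the log2 ratio of Ptn to Mdk differed by -0.31 (exact permutation p = 0.74, adjusted p = 0.74 over 5 ratios). Of the 10 factors, Ptn was the only one that no alternative other than endothelial scaling called.

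The PDGF chains Pdgfa and Pdgfb moved in opposite directions. Pdgfa (ENSMUSG00000025856, chromosome 5 from 138976014 to 138997370) was at 29.5, 28.3, 22.7 and 39.1 CPM in Sca-1+ libraries 7, 13, 15 and 19 and at 241, 331, 128, 87.5 and 78.0 CPM in Sca-1- libraries 8, 10, 14, 16 and 22. Pdgfb (ENSMUSG00000000489, chromosome 15 from 79995874 to 80014977), the chain with which ECs recruit pericytes, was at 42.8, 50.1, 41.6 and 38.4 CPM and at 11.2, 15.1, 3.90, 8.80 and 11.6 CPM in the same order. Neither chain overlapped between the fractions. Per Cdh5 count, however, there were 0.140 to 0.213 Pdgfb counts in Sca-1+ libraries and 0.669 to 6.17 in Sca-1- libraries, the opposite direction to the CPM. Pdgfa had a log2 fold change of -2.53 ± 0.46 (SE, adjusted p = 0.0015 by edgeR) and means of 29.9 ± 6.85 and 173 ± 109.6 CPM (SD, n = 4 and 5). Pdgfb had a log2 fold change of 2.10 ± 0.34 (SE, adjusted p = 7.5e-04 by edgeR) and means of 43.2 ± 4.93 and 10.1 ± 4.13 CPM (SD, n = 4 and 5), the tightest Sca-1+ levels of the 10 factors, with a coefficient of variation of 11.4%.

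Inside each library the log2 ratio of Pdgfb to Pdgfa counts was 0.54, 0.82, 0.88 and -0.03 in Sca-1+ libraries 7, 13, 15 and 19 and -4.43, -4.45, -5.03, -3.31 and -2.75 in Sca-1- libraries 8, 10, 14, 16 and 22. The chains were thus near parity in Sca-1+ ECs, and Pdgfa counts far exceeded Pdgfb counts in the Sca-1- fraction. The difference of 4.55 was the largest of the 5 ratios compared (exact permutation test, two-sided, p = 0.0079, adjusted p = 0.020). Further values touch Pdgfa. Its counts were 0.0118 to 0.0158 per Itga2b count over all Sca-1- libraries and 2.02 to 3.96 per Itga2b count in Sca-1+ libraries. In CPM, Pdgfa itself varied 4.25 times and Itga2b 4.2 times between the Sca-1- libraries. The TMM factors of these libraries, from 0.581 to 1.16, enter both spreads, and Pdgfa counts before scaling ran from 1916 to 4744. The part of megakaryocyte RNA in the level of Pdgfa was not tested. Its exons share 26.1% of their bases with 6330403L08Rik on the opposite strand, and since the use of strand in counting is not given in the sources used here, the Pdgfa value is uncertain. That neighbour was at 1.17 to 2.83 CPM in Sca-1+ and 3.46 to 23.9 CPM in Sca-1- libraries, below Pdgfa in every library.

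**Figure D3:**
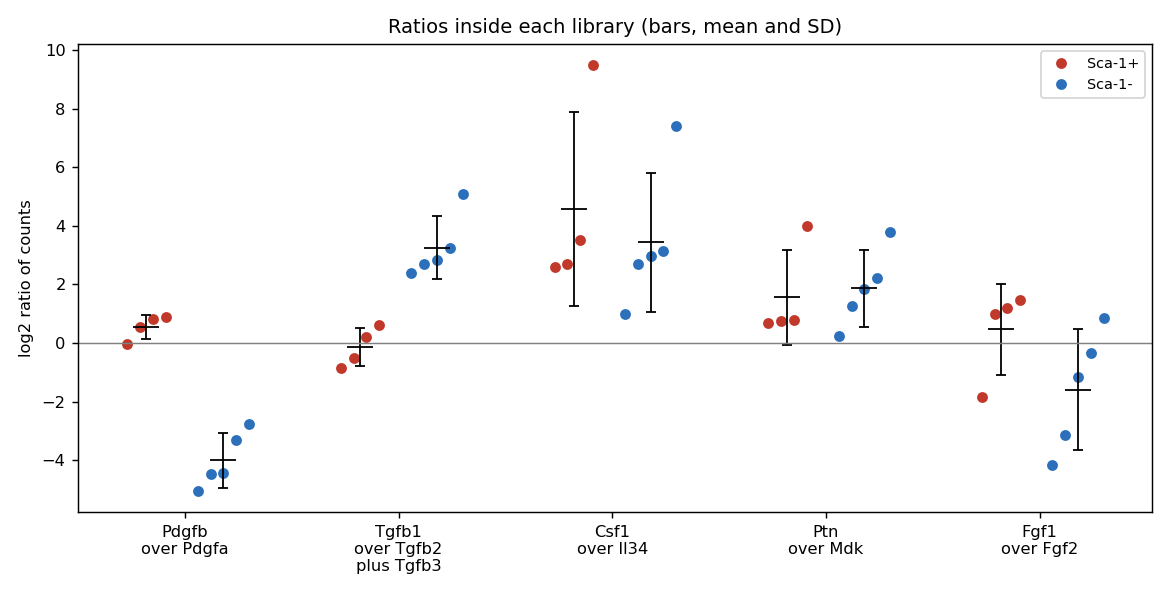
Log2 ratio of counts of a niche factor to its relatives inside each library, with Sca-1+ libraries in red, Sca-1- in blue and black bars for the mean and SD (n = 4 and 5). The fractions separate for Pdgfb over Pdgfa (difference 4.55) and Tgfb1 over Tgfb2 plus Tgfb3 (difference -3.39), and overlap in the other 3 ratios.

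Levels were next ordered per length, as CPM per kilobase of exon. In Sca-1+ ECs the medians ran from Cxcl12 (106 CPM per kb) through Kitl (24.7), Il6 (22.5), Csf1 (18.7), Pdgfb (10.1), Pdgfa (9.26), Tgfb1 (6.86) and Ptn (5.39) to Fgf1 (2.22) and Il7 (0.804). Only the steps from Csf1 to Pdgfb and from Ptn to Fgf1 separated neighbours without overlap of their libraries. In the Sca-1- fraction the order opened with Pdgfa (41.1 CPM per kb), Tgfb1 (31.4) and Cxcl12 (20.2), went on with Ptn (6.92), Csf1 (5.67), Il7 (3.12), Il6 (2.93) and Pdgfb (2.69), and ended with Kitl (0.719) and Fgf1 (0.385), and every pair of neighbours overlapped. Kitl thus stood second in Sca-1+ ECs and next to last in the Sca-1- fraction, and Pdgfa and Tgfb1 took the top places there. With the length of the longest transcript in place of the union of exons, Il6 and Csf1 traded places in Sca-1+ ECs, and Pdgfb, Il7 and Il6 changed order in the Sca-1- fraction.

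**Figure D4:**
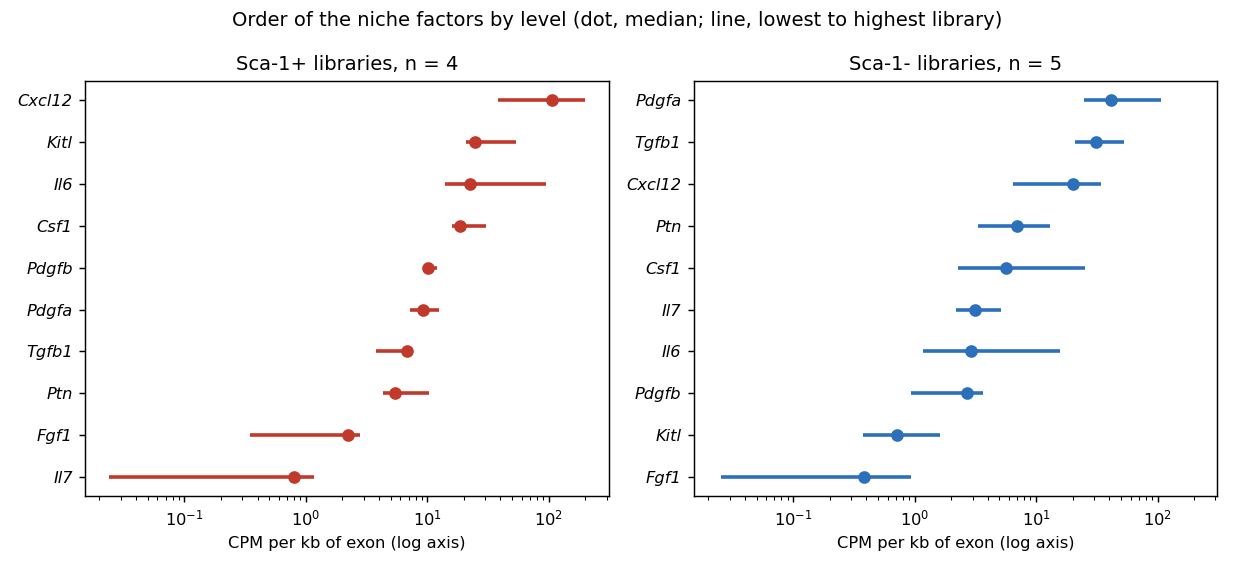
CPM per kilobase of exon (log axis) of the niche factors in Sca-1+ (left, n = 4) and Sca-1- (right, n = 5) libraries, ordered by median, with the median as a dot and a line from the lowest to the highest library. Cxcl12 leads at 106 in Sca-1+ and Pdgfa at 41.1 in Sca-1- libraries.

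These differences are relative to the whole transcriptome of each fraction, and another reference turned several of them. Scaling to general endothelial genes moved the median log2 fold change of all genes to -4.10, with 87.1% of genes called lower and 1.63% higher in Sca-1+ libraries. Under it Kitl was the single factor with a positive value (0.95, adjusted p = 0.077 by edgeR), and Cxcl12 (-1.73), Pdgfb (-2.27), Il6 (-1.07), Csf1 (-2.72) and Fgf1 (-1.66) turned negative, with 0 factors called higher and 7 lower. Tgfb1 (-6.95), Il7 (-6.70) and Pdgfa (-7.07) lay below the shifted median, and Ptn (-4.39) near it. Of the related genes named here as higher in Sca-1+ ECs, Eng (-0.10), Il6st (-0.34), Tgfb2 (-0.94), Pdgfd (-0.31), Plat (-0.43) and Hspg2 (-0.35) also turned negative, Acvrl1 (0.63, adjusted p = 0.085) and Csf3 (2.55, adjusted p = 0.093) kept a positive value without a call, and Igfbp3 stayed called (2.17, adjusted p = 5.2e-04). The ratios of counts inside a library given above do not change with the scaling.

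**Figure D5:**
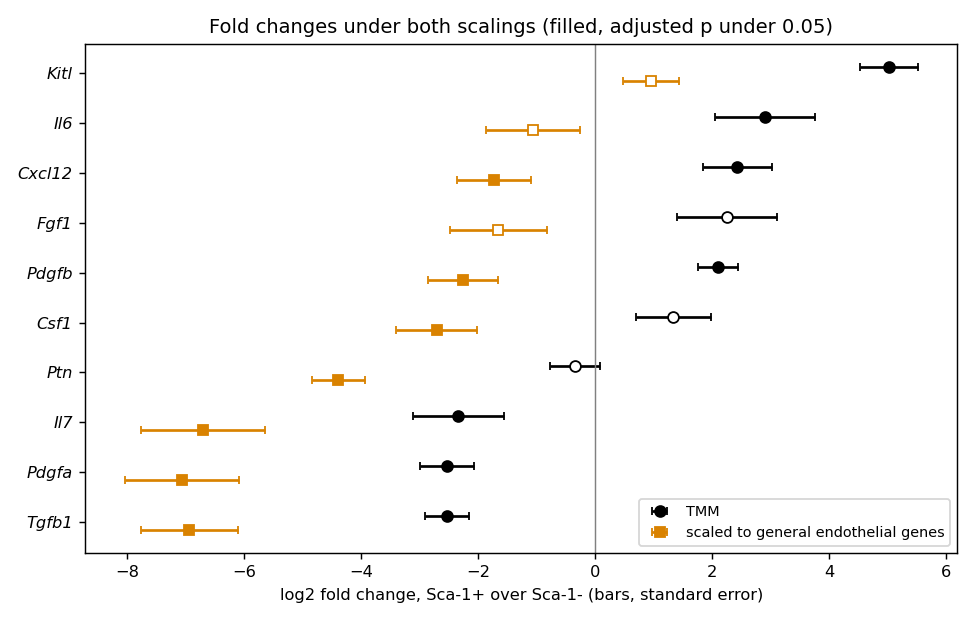
Log2 fold change, Sca-1+ over Sca-1-, with its standard error for each niche factor under TMM scaling (black circles) and scaled to general endothelial genes (orange squares), filled where the adjusted p was under 0.05. Kitl keeps a positive value under both (5.01 and 0.95), while Cxcl12, Il6, Fgf1, Pdgfb and Csf1 change sign.

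The receptors of these factors were taken as a list of 23 genes, of which 20 were tested, 7 (35%) were higher in Sca-1+ ECs, 3 (15%) were lower and 10 were not called, with a median log2 fold change of 1.27, beside 23.3% and 21.4% of all genes. The TGF-β receptors of ECs led the higher side, with Acvrl1 (ALK1) at 140.3 ± 19.4 against 5.87 ± 2.83 CPM (SD, n = 4 and 5) (log2 fold change 4.57 ± 0.43 SE, adjusted p = 4.2e-05 by edgeR) and the co-receptor Eng (endoglin) at 498 ± 37.0 against 33.1 ± 14.5 CPM (3.91 ± 0.36 SE, adjusted p = 4.1e-05). Il6st (gp130), the signalling chain of the IL-6 receptor, was higher too, at 690 ± 132 against 57.3 ± 37.0 CPM (3.59 ± 0.52 SE, adjusted p = 4.2e-04), whereas the binding chain Il6ra was lower (1.73 to 4.76 against 4.45 to 11.2 CPM, -1.54 ± 0.46 SE, adjusted p = 0.019), a call that was lost without Sca-1+ library 7 (adjusted p = 0.056), 13 (0.057) or 15 (0.062) and with scaling by library size alone (0.090). Tgfb1 differed in direction from Acvrl1 and Eng, and Tgfb2 did not. Ptprz1, a receptor of pleiotrophin, was at 0 to 3.64 CPM in Sca-1+ and 12.1 to 76.1 CPM in Sca-1- libraries (log2 fold change -5.38 ± 1.28 SE). Without Sca-1+ library 19 the value was -8.42. Ptprz1 passed the filter through the Sca-1- libraries, where it is high, so its values are given as a description.

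The main receptors of the other factors were mostly not called. Kit, the receptor of stem cell factor, was at 16.2 to 55.4 CPM in Sca-1+ and 21.9 to 105 CPM in Sca-1- libraries (adjusted p = 0.22 by edgeR). The CXCL12 receptors Cxcr4 (6.39 to 9.34 against 1.86 to 5.55 CPM, adjusted p = 0.063) and Ackr3 (52.8 to 117 against 44.6 to 128 CPM, adjusted p = 0.86) were not called, nor were Csf1r (2.66 to 7.32 against 2.85 to 6.28 CPM, adjusted p = 0.78), Pdgfra (adjusted p = 0.82) and Pdgfrb (5.55 to 38.4 against 0 to 13.3 CPM, adjusted p = 0.099, and 0.036 without Sca-1- library 8). Il7r had 0 counts in all 4 Sca-1+ libraries, where a count of 0 allows up to 3, and 0.601 to 21.4 CPM in Sca-1- libraries, through which alone it passed the filter, so its values are given as a description.

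Of 12 related ligands tested, 4 (33.3%) were higher in Sca-1+ ECs, 2 (16.7%) were lower and 6 were not called, beside 23.3% higher and 21.4% lower among all genes tested. Pdgfd, a PDGF ligand for the PDGF receptor β, was at 210.4 ± 34.9 against 15.3 ± 8.58 CPM (SD, n = 4 and 5), with a log2 fold change of 3.78 ± 0.40 (SE, adjusted p = 7.4e-05 by edgeR). Pdgfd and Pdgfb were thus both higher and Pdgfa lower in Sca-1+ ECs. Il34, the other ligand of the CSF1 receptor, was at 16.8, 0.102, 14.5 and 14.1 CPM in Sca-1+ libraries 7, 13, 15 and 19, and 0.764 to 7.27 CPM in Sca-1- libraries (adjusted p = 0.20). Library 13 had 3 counts of it, without that library Il34 was called (2.10, adjusted p = 0.029), and the log2 ratio of Csf1 to Il34 was not shown to differ (difference 1.13, exact permutation p = 0.52, adjusted p = 0.65 over 5 ratios). Fgf2 overlapped as well, at 4.90 to 6.78 against 1.14 to 6.51 CPM (adjusted p = 0.56).

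Other secreted or membrane ligands of the niche were higher in Sca-1+ ECs in 22 of 34 genes tested (64.7%), lower in 5 (14.7%) and not called in 7. Among all genes tested 23.3% were higher and 21.4% lower. The median log2 fold change of these ligands was 3.52. Igfbp3, an IGF-binding protein, was at 762 ± 108 against 9.57 ± 4.71 CPM (SD, n = 4 and 5) (6.31 ± 0.44 SE, adjusted p = 1.5e-05 by edgeR). Csf3, the granulocyte growth factor, was at 21 to 87.5 against 0 to 3.54 CPM (log2 fold change 6.19 ± 1.40 SE). Without Sca-1- library 22 the Csf3 value was 10.88. Csf3 passed the filter through the Sca-1+ libraries, where it is high, so its values are given as a description. On the lower side stood Pf4 (platelet factor 4), which megakaryocytes store and which is also on the marker list, at 4.99 to 19.9 against 3242 to 9039 CPM (-8.86 ± 0.68 SE, adjusted p = 1.8e-05). Angpt1, which encodes the TIE2 ligand angiopoietin-1, was at 0.715 to 8.32 against 115 to 586 CPM (-6.01 ± 0.82 SE, adjusted p = 2.9e-04). By CPM it was highest in Sca-1- libraries 10 and 8, which had the lowest TMM factors, and Tgfb1 and Pdgfa were highest there too.

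Genes that activate, store or present these factors were mixed, with 8 of 19 tested (42.1%) higher in Sca-1+ ECs, 3 (15.8%) lower and 8 not called, beside 23.3% higher and 21.4% lower among all genes tested. The lower ones included genes that act on latent TGF-β. Thbs1 (thrombospondin-1), which activates it, was at 19.5 to 82.6 against 791 to 6294 CPM (-6.19 ± 0.85 SE, adjusted p = 2.9e-04 by edgeR, and -6.83 without Sca-1+ library 19), and Ltbp1, which anchors it to the matrix, at 3.95 to 23.2 against 198 to 1640 CPM (-5.59 ± 0.81 SE, adjusted p = 4.0e-04). By CPM both were highest in Sca-1- libraries 10 and 8, which had the lowest TMM factors, in the order of the megakaryocyte sum. Plat (tissue plasminogen activator), the protease that turns plasminogen into plasmin, was higher in Sca-1+ ECs, at 249.7 ± 33.9 against 18.1 ± 3.69 CPM (3.79 ± 0.23 SE, adjusted p = 8.2e-06 by edgeR). So was Hspg2 (perlecan), a heparan sulfate proteoglycan that binds FGF, at 24.5 ± 5.03 against 1.95 ± 1.68 CPM (3.65 ± 0.71 SE, adjusted p = 0.0021).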

How the data were processed

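RNA was taken from sorted BM ECs, and full-length cDNA libraries were made from poly(A) RNA with the SMART-Seq v4 kit, without molecular identifiers, so PCR copies are counted too and floors cover counting error only. The authors deposited whole-number read counts per Ensembl gene, not normalized, and the submitters' processing notes name STAR, featureCounts and mm10. Strand use and versions are not given in the sources used here.

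Groups came from the deposited labels. The analysis used edgeR 4.0.16 in R 4.3.3: filterByExpr (minimum count 10, minimum total 15), TMM, the quasi-likelihood test, two-sided, Benjamini-Hochberg adjustment over 15937 genes and a threshold of 0.05. CPM were computed on TMM-scaled library sizes, with a prior count of 2 on the log2 scale. Ratios of counts inside a library, with 0.5 added to each count, were compared by an exact permutation test over all splits. Likeness was the mean absolute difference of centred log2 CPM among genes with an average log2 CPM of at least 3. DESeq2 1.42.0 and limma 3.58.1 (voom) were alternatives. The steps were tested on simulated data. Coordinates came from GENCODE M21 (GRCm38), which holds 45143 of the deposited identifiers, and promoter windows from RefSeq (GRCm38.p6). Plots used matplotlib 3.10.9 in Python 3.11.15.

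The niche factors and all gene lists were chosen with earlier results of these data known. Of 245 listed symbols 243 matched once. Clcf1, with 2 identifiers, and Epb42, without a match, were left out. Named beside the factors were the 2 to 4 genes of each list furthest apart without overlap, plus the receptors and closest relatives of the factors. The remaining marker lists gave 8 of 11 erythroid, 3 of 5 B and plasma cell and 1 of 8 neutrophil genes lower in Sca-1+ ECs.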

Additional observations from a re-analysis of the deposited data

Results flagged for a closer look

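In 4 of the 30 sets of values examined (each factor and each ratio in each fraction), 1 library lay apart from the others by more than Dixon's criterion at 95% allows. Chance gives about 1 in 20 for independent sets, but the ratios reuse the counts of the factors, so these sets are not independent. All 4 were Sca-1+ library 13. Its log2 CPM of Fgf1 was 0.99 against 3.52 to 3.95 in the other Sca-1+ libraries. Its log2 ratio of Csf1 to Il34 was 9.47 against 2.58 to 3.51, at 3 counts of Il34. Its log2 ratio of Ptn to Mdk was 4.0 against 0.67 to 0.80. Its log2 ratio of Fgf1 to Fgf2, which rests on the same 56 counts of Fgf1, was -1.82 against 1.0 to 1.48. The same library held the least Adipoq, Lepr, Cxcl12 and Il7 of its fraction, and the cause was not tested.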

How the results depend on the processing

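The 21 alternatives changed the scaling, the filter, the test, the fit or the libraries. Of 209 log2 fold changes of the factors under them, 186 kept direction and side of the threshold, 7 gained a call, 11 lost one and 5 reversed, all 5 of them under endothelial scaling. Kitl, Tgfb1, Pdgfa and Pdgfb were called in the same direction under every alternative other than endothelial scaling. Under endothelial scaling Tgfb1 (-6.95) and Pdgfa (-7.07) kept their calls, Kitl (0.95) lost its call and Pdgfb was reversed. That scaling left 0 factors higher and 7 lower, with Cxcl12 at -1.73, Fgf1 -1.66, Csf1 -2.72, Il6 -1.07 and Pdgfb -2.27. It also reversed Eng (-0.10), Il6st (-0.34), Pdgfd (-0.31), Tgfb2 (-0.94), Plat (-0.43), Hspg2 (-0.35), Cxcr4 (-3.14), Ackr3 (-4.01), Pdgfrb (-1.69), Mdk (-3.84), Il34 (-2.76), Fgf2 (-3.66) and Pecam1 (-3.84), and called 260 genes higher and 13889 lower. Library size alone called 4158 and 2431, with a median log2 fold change of 0.43, and turned Csf1r (0.20), Pdgfra (0.21) and Tgfb3 (0.018). Ackr3 was -0.019 with DESeq2 size factors and in the DESeq2 test, and -0.14 without libraries 16 and 19. DESeq2 called Fgf1 (adjusted p = 0.021) and gave no adjusted p for Csf1, and voom called Csf1 (adjusted p = 0.025).

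With 1 library left out, 3 to 6 factors were called higher and 2 to 3 lower, and log2 fold changes ran from -0.14 to 0.28 for Ackr3, -0.54 to 0.017 for Csf1r, -0.60 to 0.11 for Pdgfra and -0.069 to 0.96 for Mdk. The log2 ratio differences ran from -0.50 to 2.12 for Csf1 over Il34 and -1.12 to 0.17 for Ptn over Mdk.

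Consecutive end numbers (7 and 8, 13 and 14, 15 and 16) were tried as a replicate block of 6 libraries. Deviations of these pairs correlated at 0.15, 0.15 and 0.04, not all over 0.1, so the numbers were not taken to pair the libraries. As a hint from the data, each of these 6 libraries correlated best with its own partner, and 15 and 16 carry the same mouse number. The block called 2 factors higher (Cxcl12 at 1.74, adjusted p = 0.082, and Il6 at 2.07, adjusted p = 0.054, were not) and 2 lower, where the same libraries without it called 3 and 2. Il7 was not called with it (-3.32, adjusted p = 0.079) or without it (-2.68, adjusted p = 0.098), nor Il6ra with it (adjusted p = 0.11). It called 2265 genes higher and 2075 lower against 2768 and 2592, and Ackr3 (-0.16), Pdgfra (0.035) and Mdk (-0.084) reversed, as did Ackr3 without it (-0.27).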
